A study of Mus musculus with 6 samples.

Results

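The suppressive effector molecules of regulatory T cells (Treg) were followed here as 10 genes, picked by symbol for their role, with earlier results of these data known: the cytokine genes Il10, Ebi3 and Il12a, the granzyme gene Gzmb, the secreted suppressor gene Fgl2, the repair factor gene Areg, the ectoenzyme genes Nt5e and Entpd1, and Lrrc32 and Itgb8, which act on latent TGF-beta. All 10 were found among the 29199 genes of the count table and all 10 passed the filter on low counts, which kept 18321 genes.

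Total RNA was sequenced from Treg sorted from the spleen 3 weeks after a bone marrow graft, in 3 libraries of Treg with WT Tconv and 3 libraries of Treg with HP1a KO Tconv. Hosts, C57BL/6 J (B6) mice or B6 mice carrying CD45.1, were irradiated and received B6 and semi-allogeneic B6D2F1 marrow together with Treg and naive conventional CD4 T cells (Tconv). All Treg were wild type (WT), came from B6 Foxp3-Thy1.1 reporter mice and had been expanded in culture with IL-2, TGF-beta and beads coated with anti-CD3 and anti-CD28. The genotype of the Tconv is the one difference between the groups that the labels give. They name no host, sort or batch for a library. HP1a, a heterochromatin protein, was deleted in the Tconv donors by a CMV-cre that acts in all tissues, and the line was kept on a background of 129/Sv and C57BL/6 origin, with littermates as WT donors. Mice were sex-matched and aged 6 to 12 weeks, and the study states that it worked with males for its sequencing analyses. The deletion was not in the sequenced cells, so the level of the targeted gene checks no label here. The labels do not say that libraries came from separate mice, so each p-value measures the spread between these samples, which may be technical. In bulk RNA, fewer cells that express a gene cannot be told apart from less RNA per cell.

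Treg restrain other T cells by several routes that run side by side. They secrete suppressive cytokines such as IL-10 and IL-35, turn extracellular ATP into adenosine through CD39 and CD73, release granzymes, and hold latent TGF-beta on their surface, where an integrin frees it. They also make amphiregulin, a growth factor that acts in tissue repair. The comparison asks whether the RNA for these molecules differed in the Treg according to the Tconv they had been injected with.

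Total counts were between 87421755 and 119078882 per library. The Treg markers Foxp3, Il2ra, Ctla4, Ikzf2, Tnfrsf18, Cd4 and Cd3e were present in every library, and their summed level was 4427 to 5097 CPM with WT Tconv and 4172 to 4528 CPM with HP1a KO Tconv. CPM is the count scaled to a common library total of 1000000. Among these markers Ctla4, an inhibitory receptor of Treg singled out after its values had been seen, was at 1246, 1349 and 1112 CPM with WT Tconv and at 1028, 1018 and 798 CPM with HP1a KO Tconv. Its libraries with HP1a KO Tconv were all lower, as for 11.6% of all genes tested in this direction, at a log2 fold change of -0.38 and an adjusted p of 0.232 by edgeR and 0.0414 by DESeq2. The DESeq2 call of Ctla4 held without replicate 2 with HP1a KO Tconv (adjusted p = 0.0118) and was lost without any 1 of the other 5 libraries, at adjusted p-values from 0.0532 without replicate 1 with HP1a KO Tconv to 0.236 without replicate 2 with WT Tconv. The groups overlapped for the other 6 markers, whose log2 fold changes ran from -0.16 for Ikzf2 to 0.21 for Tnfrsf18. A pair of libraries stood apart. In replicate 3 of Treg with WT Tconv, the 4 red cell genes summed to 4532 CPM against 279 to 501 CPM in the other libraries, and the 5 neutrophil genes to 1460 CPM against 34.6 to 179 CPM. The 5 genes of macrophages and monocytes summed to 179 CPM there against 12.9 to 46.5 CPM. Replicate 2 of Treg with HP1a KO Tconv differed most from the other libraries of its group, as the chi-square of its counts, divided by the degrees of freedom, was 142 against replicate 1 and 177 against replicate 3, and 29.6 between those. Foxp3, the transcription factor that defines the lineage, was lowest in that library, at 154 CPM against 200 to 252 CPM in the other 5.

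The effectors covered a wide range of levels. Set per kilobase of the canonical transcript, Gzmb was the most abundant with WT Tconv, at 325 ± 81.6 CPM per kilobase (SD, n = 3). It was followed by Il10 at 140 ± 13.9, Areg at 127 ± 11.95, Nt5e at 100.5 ± 3.82, Fgl2 at 48.6 ± 8.20, Lrrc32 at 30.8 ± 1.45, Ebi3 at 18.6 ± 1.38, Entpd1 at 15.9 ± 1.47 and Itgb8 at 14.4 ± 0.274 CPM per kilobase. Il12a was last, at 0.252 ± 0.158 CPM per kilobase. Il10 and Areg overlapped between libraries, and every other neighbouring pair in this order was separated in the 3 libraries with WT Tconv. With HP1a KO Tconv the order of the means was the same, from 323 ± 18.6 CPM per kilobase for Gzmb to 0.125 ± 0.0729 for Il12a, and Il10 and Areg, Areg and Nt5e, and Lrrc32 and Ebi3 overlapped. Ebi3 stood at rank 7 by canonical length and at rank 9 with WT Tconv when all exonic bases of a gene were used, so its place beside Entpd1 and Itgb8 depends on the length taken.

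None of the 10 genes passed an adjusted p-value of 0.05 in the quasi-likelihood test of edgeR with Benjamini-Hochberg adjustment, and neither did any other gene (0% of 18321). At an unadjusted p-value under 0.05 the edgeR test took 1 of the 10, Il10, against 14.5% of all genes tested. DESeq2 called 1 of the 10 at an adjusted p-value under 0.05, again Il10, where it called 4.35% of the 12097 genes it gave an adjusted p-value. The limma-voom test called 0. The groups did not overlap for 1 of the 10 genes, Il10, against 23% of all genes tested. Log2 fold changes of Treg with HP1a KO Tconv over Treg with WT Tconv ran from -1.01 to 0.13, with 7 below 0 and 3 above, and had a median of -0.13 where that of all genes tested was -0.01.

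**Figure D1:**
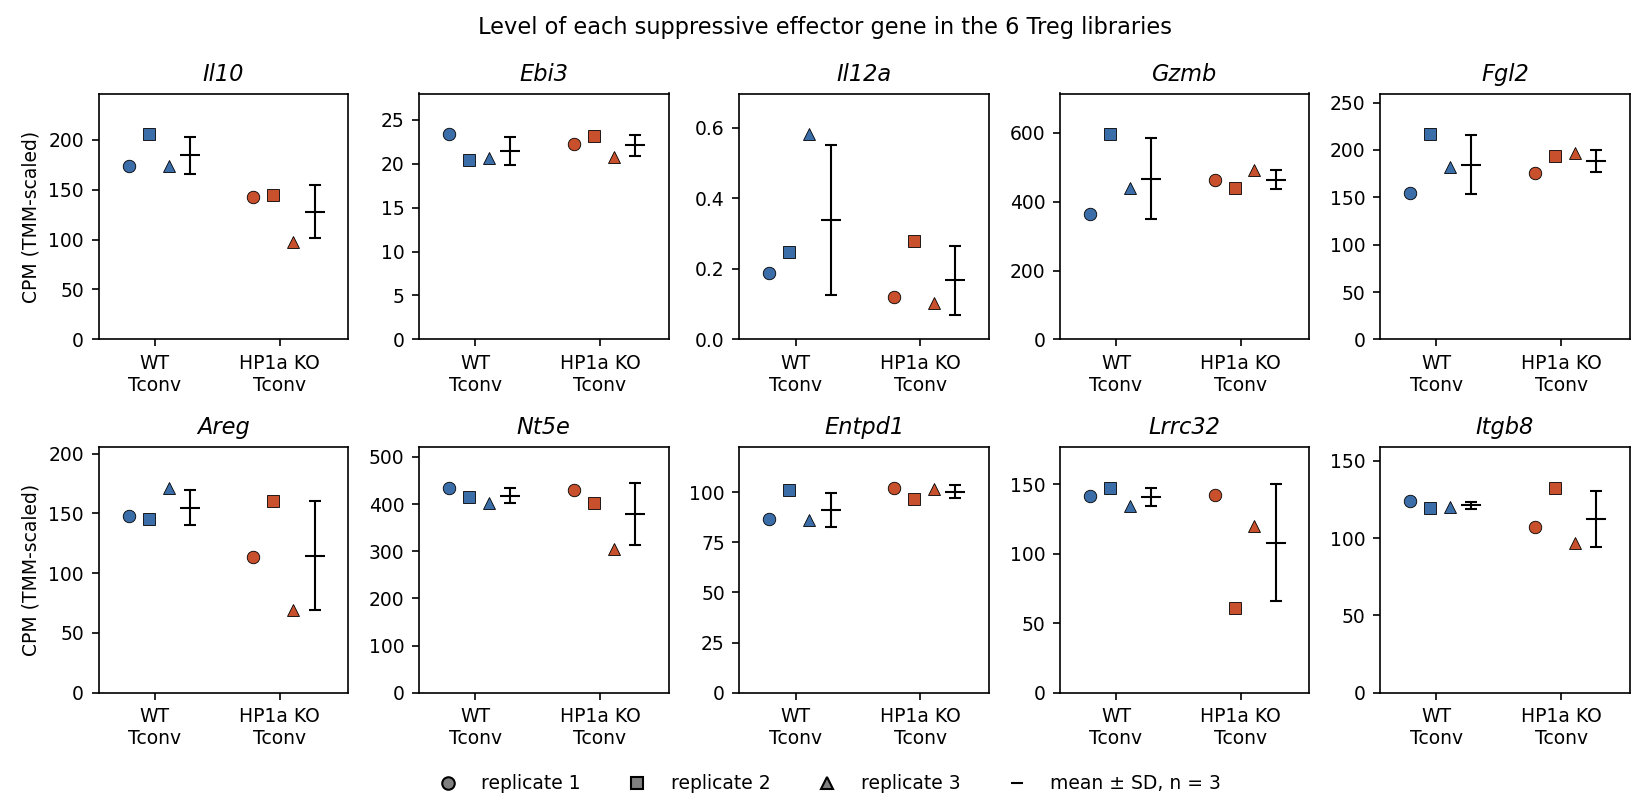
Level of each of the 10 genes in the 6 Treg libraries, in CPM on a linear axis from 0, by the genotype of the Tconv. Symbols mark the replicates and bars the mean ± SD (n = 3). Il10 is the one gene whose groups do not overlap, and the lowest libraries of Lrrc32 and Areg, both with HP1a KO Tconv, are at 61.1 and 69.6 CPM.

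Il10 (ENSMUSG00000016529, chr1:130947581-130952711 in GRCm39, plus strand) encodes the cytokine IL-10, which dampens antigen-presenting cells and effector T cells. It was at 174, 205 and 174 CPM in replicates 1, 2 and 3 of Treg with WT Tconv and at 143, 144 and 97.1 CPM in replicates 1, 2 and 3 of Treg with HP1a KO Tconv. All 3 libraries with HP1a KO Tconv were lower than all 3 with WT Tconv, a separation in this direction that 11.6% of all genes tested had. The means were 184 ± 18.2 and 128 ± 26.7 CPM (SD, n = 3). By edgeR this is a log2 fold change of -0.52 (standard error 0.163) and a 95% interval of -0.91 to -0.14, with an unadjusted p of 0.0156 and an adjusted p of 0.246. DESeq2 gave a log2 fold change of -0.53 with an adjusted p of 0.0180. An unadjusted edgeR p-value under 0.05 in this direction was found for 7.52% of all genes tested.

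The call of Il10 by DESeq2 rested on all 3 libraries with WT Tconv. Without replicate 1 of that group the DESeq2 adjusted p was 0.0973, without replicate 2 it was 0.186, and without replicate 3 it was 0.0798. It was 0.0311, 0.00406 and 0.0411 by DESeq2 without replicate 1, 2 or 3 of Treg with HP1a KO Tconv. The edgeR log2 fold change stayed below 0 in each of these, between -0.62 without replicate 2 and -0.36 without replicate 3 of Treg with HP1a KO Tconv. Its unadjusted edgeR p was 0.0554 without replicate 2 with WT Tconv, above 0.05, and was under 0.05 with each of the other libraries left out in turn. Set against the count of Foxp3 in the same library, the log2 difference of Il10 was again -0.52, but the groups then overlapped, and an exact two-sided permutation test gave p = 0.4, where 3 libraries against 3 cannot go below 0.1. Over all fits by edgeR, limma-voom and DESeq2 its adjusted p lay between 0.00406 and 0.458.

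**Figure D2:**
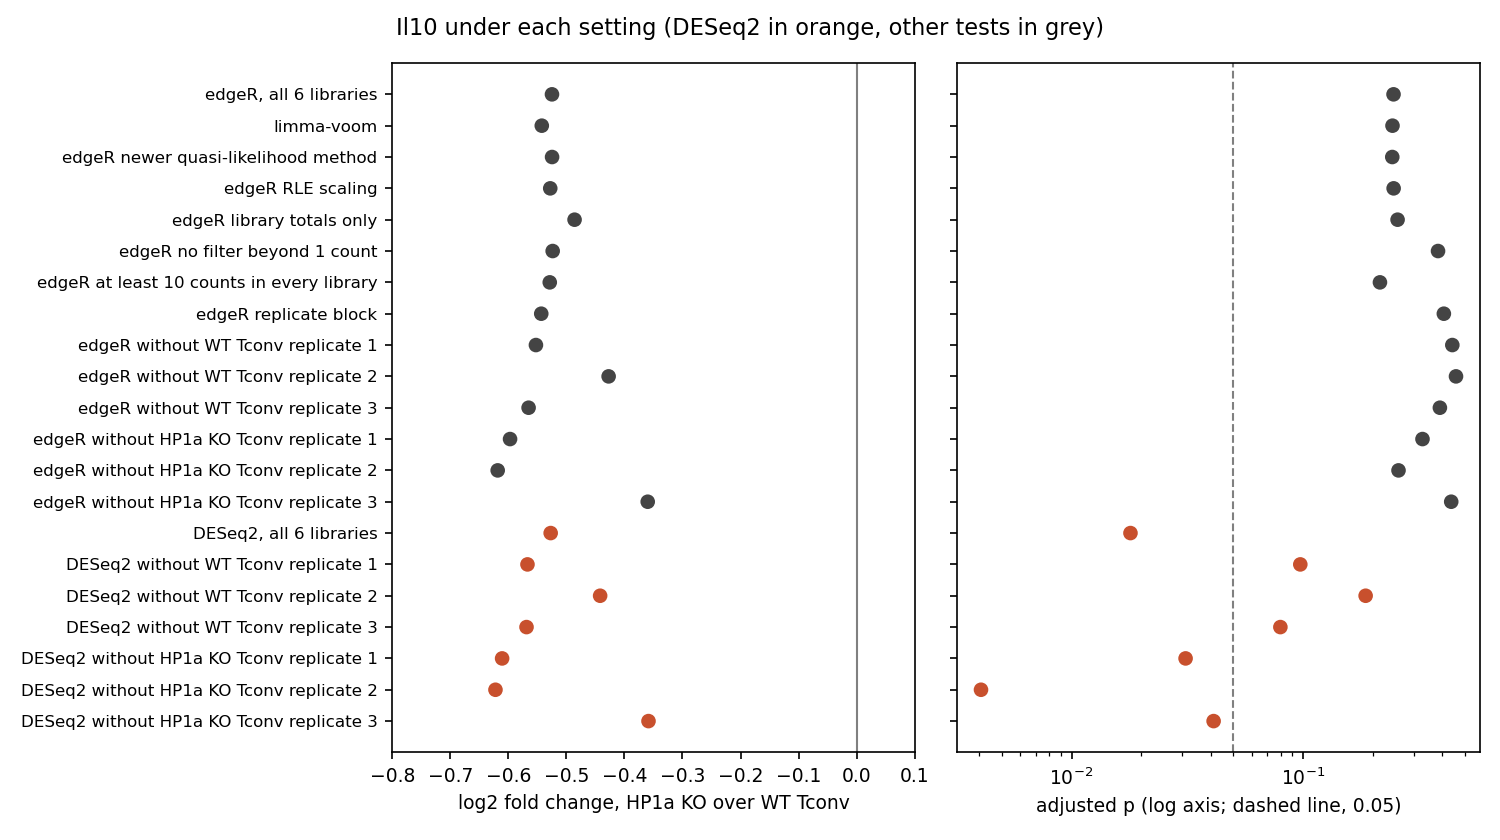
Il10 under each fit, with the log2 fold change on the left and the adjusted p on a log axis on the right. Every fold change lies below 0, and only fits by DESeq2 cross the dashed line at 0.05, which DESeq2 without any 1 library of Treg with WT Tconv does not.

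Genes that act with IL-10 were taken from a list of 42 genes chosen by role for all the effector routes, of which 36 could be tested. IL-10 is read by a receptor of a binding chain, IL-10R1, encoded by Il10ra, and a signalling chain shared with other cytokines, encoded by Il10rb. Il10ra was at 207, 206 and 186 CPM with WT Tconv and at 241, 233 and 254 CPM with HP1a KO Tconv. Il10rb was at 56.7, 61.6 and 53.4 CPM with WT Tconv and at 68.6, 71.7 and 70.9 CPM with HP1a KO Tconv. For both chains all 3 libraries with HP1a KO Tconv were higher than all 3 with WT Tconv, as for 11.5% of all genes tested. Their log2 fold changes were 0.28 (standard error 0.0713) for Il10ra and 0.30 (standard error 0.0727) for Il10rb, with an edgeR adjusted p of 0.209 for each. By DESeq2 the adjusted p was 0.0449 for Il10ra and 0.0430 for Il10rb. DESeq2 called neither chain once replicate 1 or 3 with WT Tconv, or replicate 3 with HP1a KO Tconv, was left out. Its adjusted p for Il10ra was then 0.0646, 0.158 and 0.0873, and for Il10rb 0.125, 0.159 and 0.0713. For Il10ra the call was also lost without replicate 2 with WT Tconv and without replicate 1 with HP1a KO Tconv, at DESeq2 adjusted p-values of 0.0707 and 0.0684.

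Maf encodes a transcription factor known to drive Il10 in T cells. It was at 412, 455 and 389 CPM with WT Tconv and at 357, 252 and 387 CPM with HP1a KO Tconv, so the groups were separate, by a small margin between the nearest libraries. The edgeR adjusted p was 0.400 at a log2 fold change of -0.33, and the fold change was -0.17 without replicate 2 of Treg with HP1a KO Tconv, the lowest library. The list held 4 such regulators of Il10 and of effector Treg, Maf, Prdm1, Batf and Irf4, with 3 log2 fold changes below 0 and 1 above. Of all 18321 genes tested, 9431 were below 0 and 8890 above, so a list of this size tells little. The log2 fold changes were -0.21 for Prdm1, -0.23 for Irf4 and 0.04 for Batf, and the groups overlapped for Irf4 and Batf.

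IL-35 is built of EBI3 and the p35 chain that Il12a encodes, and p35 also forms IL-12 with another partner. Ebi3 (ENSMUSG00000003206, chr17:56259270-56264023, plus strand) was at 23.3, 20.5 and 20.7 CPM with WT Tconv and at 22.3, 23.2 and 20.8 CPM with HP1a KO Tconv. The libraries were interleaved, at a log2 fold change of 0.04 with a 95% interval of -0.16 to 0.24 (edgeR adjusted p = 0.867). An antisense gene, Gm16712, covers 51.1% of the exonic bases of Ebi3. It held 27 to 58 counts per library against 1833 to 2421 for Ebi3, and how the estimate shared reads between them was not tested.

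Il12a (ENSMUSG00000027776, chr3:68597977-68605880, plus strand) was close to the limit of detection. Its counts were 18, 24 and 68 with WT Tconv and 11, 28 and 9 with HP1a KO Tconv, or 0.187, 0.248 and 0.581 CPM and 0.121, 0.280 and 0.102 CPM. The highest value was in replicate 3 of Treg with WT Tconv, the library with the most RNA of red cell, neutrophil and macrophage genes, whose part in this value was not tested. With all libraries the log2 fold change was -1.01 (standard error 0.591, edgeR adjusted p = 0.481), and it was -0.37 without that library. DESeq2 gave no adjusted p for Il12a. So the partners of IL-35 differed in level by far, with Ebi3 at 18.6 and Il12a at 0.252 CPM per kilobase with WT Tconv.

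Among the partners and receptors of the IL-12 family, 4 of the 7 listed genes could be tested. Il27ra, a chain of the receptor for IL-27, which also contains EBI3, was at 314, 319 and 307 CPM with WT Tconv and at 350, 379 and 341 CPM with HP1a KO Tconv. The libraries with HP1a KO Tconv were all higher, at a log2 fold change of 0.19 (standard error 0.0673, edgeR adjusted p = 0.272). Il23a and Il27, which encode partner chains, had too few counts to be tested. Il12b was listed but was not found by symbol among the 29199 genes counted.

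Gzmb (ENSMUSG00000015437, chr14:56496295-56499717, minus strand) encodes granzyme B, a protease that kills target cells once perforin lets it in. It was at 366, 595 and 440 CPM with WT Tconv and at 462, 439 and 492 CPM with HP1a KO Tconv. Both the lowest and the highest library had WT Tconv, and the 3 values with HP1a KO Tconv lay between them. The means were 467 ± 117 and 464 ± 26.7 CPM (SD, n = 3). This is a log2 fold change of -0.01 with a 95% interval of -0.42 to 0.40 (edgeR adjusted p = 0.988), whose sign turned in several settings. Its coefficient of variation with WT Tconv, 25.1%, was above that of 96.5% of the 8848 genes tested with a mean of at least 10 CPM.

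Of the 7 listed genes of the cytotoxic granule, 0 passed an unadjusted edgeR p-value of 0.05, which 14.5% of all genes tested did, so a list of this size tells little. Srgn, which encodes the granule proteoglycan serglycin, was the most abundant, at 1249 ± 31.6 CPM with WT Tconv and 1152 ± 191 CPM with HP1a KO Tconv (SD, n = 3). Its log2 fold change of -0.12 had an edgeR adjusted p of 0.685 and turned to 0.01 without replicate 3 of Treg with HP1a KO Tconv, where Srgn was lowest, at 946 CPM.

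Fgl2 (ENSMUSG00000039899, chr5:21577640-21597055, plus strand) encodes a fibrinogen-like protein that Treg secrete and that acts through the inhibitory Fc receptor of antigen-presenting cells. It was at 154, 216 and 182 CPM with WT Tconv and at 175, 193 and 196 CPM with HP1a KO Tconv. As for Gzmb, replicate 1 was the lowest and replicate 2 the highest library, both with WT Tconv. Between the groups the log2 fold change was 0.03, with a 95% interval of -0.25 to 0.31 (edgeR adjusted p = 0.927), and it was -0.07 without replicate 1 of Treg with WT Tconv. Fcgr2b, the gene of that Fc receptor, had 11, 9 and 168 counts with WT Tconv and 41, 9 and 45 counts with HP1a KO Tconv. Its highest value was again in the library with the most RNA of red cell, neutrophil and macrophage genes, whose part was not tested. The log2 fold change of Fcgr2b was -0.66 (edgeR adjusted p = 0.839) with all libraries and 1.74 without that one.

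Areg (ENSMUSG00000029378, chr5:91287451-91296291, plus strand) encodes amphiregulin. It was at 147, 145 and 171 CPM with WT Tconv and at 113, 161 and 69.6 CPM with HP1a KO Tconv. Replicates 1 and 3 with HP1a KO Tconv were below all 3 libraries with WT Tconv, and replicate 2 was among them. The means were 155 ± 14.6 and 114 ± 45.6 CPM (SD, n = 3), at a log2 fold change of -0.43 (standard error 0.315, edgeR adjusted p = 0.586). The fold change was -0.76 without replicate 2 and -0.17 without replicate 3 of Treg with HP1a KO Tconv. The coefficient of variation of Areg with HP1a KO Tconv, 39.8%, was above that of 99.2% of genes with a mean of at least 10 CPM. Il18r1, a chain of the receptor for IL-18, which can induce amphiregulin in Treg, was at 249, 253 and 228 CPM with WT Tconv and at 268, 243 and 259 CPM with HP1a KO Tconv. Its log2 fold change was 0.08 (edgeR adjusted p = 0.651), and the groups overlapped.

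Promoter sequence is given for context, beside genes whose levels were measured and whose promoters were not. RefSeq promoter sequences, from a table of GRCm38.p6 that matched GRCm39 at 1 place each, were at hand for 8 of the 10 genes, and those of Il10 and Lrrc32 were not used here. In the 300 bases from 250 before to 50 after each start, motifs were searched on both strands by their letters. The AP-1 motif TGANTCA is in 7.81% of all 32851 promoters of the table, the cyclic AMP response element TGACGTCA in 1.79%, the forkhead motif TGTTTNC in 20.5% and the NFAT motif TGGAAA in 21.4%. Areg holds the cyclic AMP response element, Gzmb and Fgl2 each hold an AP-1 motif, and the other 5 genes hold none of the 4. The 100 bases before the RefSeq start are shown 5′ to 3′ for these 3 genes because the match lies in them, with the motif in capitals.
Areg, chr5:91287358-91287457, plus strand, motif 61 to 54 bases before the start: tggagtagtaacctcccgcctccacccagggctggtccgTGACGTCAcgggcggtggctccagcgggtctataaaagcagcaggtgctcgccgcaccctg
Gzmb, chr14:56499792-56499891, minus strand, motif 58 to 52 bases before the start: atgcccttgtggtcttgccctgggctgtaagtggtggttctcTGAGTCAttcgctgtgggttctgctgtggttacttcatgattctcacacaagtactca
Fgl2, chr5:21577571-21577670, plus strand, motif 16 to 10 bases before the start: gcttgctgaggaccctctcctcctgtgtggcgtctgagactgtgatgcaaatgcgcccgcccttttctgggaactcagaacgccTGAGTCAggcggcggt
These RefSeq starts are not those of the gene positions given with each gene. By the latter Fgl2 begins at 21577640, within the bases shown, so its motif lies inside the gene. Gzmb begins at 56499717, downstream of the bases shown, so its motif lies further from that start. Areg begins at 91287451, within the bases shown but after its motif. A match describes the letters and no binding was measured.

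The adenosine route runs from ATP through CD39, encoded by Entpd1, to AMP, and through CD73, encoded by Nt5e, to adenosine. Entpd1 (ENSMUSG00000048120, chr19:40600810-40731585, plus strand) was at 86.5, 101 and 86.4 CPM with WT Tconv and at 102, 96.6 and 102 CPM with HP1a KO Tconv. Replicates 1 and 3 with WT Tconv were the lowest libraries, and replicate 2 lay among those with HP1a KO Tconv. At 0.13, the log2 fold change had a 95% interval of -0.05 to 0.32 (edgeR adjusted p = 0.484). It was 0.23 without replicate 2 of Treg with WT Tconv, where the unadjusted edgeR p was 0.0195 and the adjusted p 0.424. Nt5e (ENSMUSG00000032420, chr9:88209089-88254146, plus strand) was at 435, 415 and 403 CPM with WT Tconv and at 430, 401 and 305 CPM with HP1a KO Tconv. Replicate 3 with HP1a KO Tconv was low and the other libraries lay close together. The log2 fold change of -0.14 had a 95% interval of -0.42 to 0.14 (edgeR adjusted p = 0.634), and it was -0.01 without that library.

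Among the 7 listed genes that handle or sense adenosine, 1 passed an unadjusted edgeR p-value of 0.05, close to the share of all genes tested (14.5%). That gene was Adora2a, which encodes the main receptor through which adenosine acts on T cells. It was at 76.3, 78.3 and 79.4 CPM with WT Tconv and at 67.6, 66.2 and 56.4 CPM with HP1a KO Tconv. All 3 libraries with HP1a KO Tconv were lower, at a log2 fold change of -0.30 (standard error 0.0819) and an adjusted p of 0.215 by edgeR and 0.0649 by DESeq2. DESeq2 called it without replicate 1 or 2 with HP1a KO Tconv (adjusted p = 0.0416 and 0.0121). Dpp4, first of this group by mean CPM over both groups but below Adora2a with WT Tconv and per kilobase, encodes CD26, which binds adenosine deaminase at the cell surface. It was at 67.9 ± 7.65 CPM with WT Tconv and 74.5 ± 3.44 CPM with HP1a KO Tconv (SD, n = 3), or 0.13 as a log2 fold change (edgeR adjusted p = 0.544).

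Lrrc32 encodes GARP, which anchors latent TGF-beta on Treg, and Itgb8 the integrin chain that pairs with the product of Itgav to release it. Lrrc32 (ENSMUSG00000090958, chr7:98138490-98151388, plus strand) was at 141, 148 and 134 CPM with WT Tconv and at 142, 61.1 and 120 CPM with HP1a KO Tconv. Replicate 2 with HP1a KO Tconv was below every other library by far, and replicate 1 was among those with WT Tconv. The means were 141 ± 6.63 and 108 ± 42.0 CPM (SD, n = 3). This gave a log2 fold change of -0.39 (standard error 0.322, edgeR adjusted p = 0.634), which was -0.10 without that library. Lrrc32 had a log2 fold change of -0.62 without replicate 1 with HP1a KO Tconv (edgeR adjusted p = 0.499). Its coefficient of variation with HP1a KO Tconv, 38.9%, was above that of 99.1% of genes with a mean of at least 10 CPM. The low library was also the one where Foxp3 was lowest. Relative to Foxp3 in the same library, Lrrc32 was lower in all 3 libraries with HP1a KO Tconv, by a log2 difference of -0.45. The exact permutation test gave p = 0.1, the smallest it can give. On this scale the groups overlapped for every other effector. The share of all genes that are separate on it is not known here, so this separation is not weighed.

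Itgb8 (ENSMUSG00000025321, chr12:119121748-119202584, minus strand) was at 124, 120 and 120 CPM with WT Tconv and at 107.4, 133 and 96.9 CPM with HP1a KO Tconv. The libraries with WT Tconv lay close together, and those with HP1a KO Tconv lay on both sides of them. For Itgb8 the log2 fold change was -0.11, with a 95% interval of -0.36 to 0.14 (edgeR adjusted p = 0.680). It was -0.01 without replicate 3 of Treg with HP1a KO Tconv (edgeR adjusted p = 0.971). Without replicate 2 of Treg with HP1a KO Tconv it was -0.25, with an adjusted p of 0.161 by edgeR and 0.0124 by DESeq2. In that replicate Itgb8 was highest while Lrrc32 was lowest.

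Of the 9 listed genes of the TGF-beta ligands and their activation, 8 could be tested, and 6 had log2 fold changes below 0. Furin, which encodes the protease that cuts the TGF-beta precursor, was at 114, 134 and 140 CPM with WT Tconv and at 115, 87.6 and 105 CPM with HP1a KO Tconv. The groups overlapped by 1 library, at a log2 fold change of -0.34 (standard error 0.117, edgeR adjusted p = 0.262). Nrros, a relative of GARP that also binds latent TGF-beta, was at 75.4, 74.6 and 71.2 CPM with WT Tconv and at 83.6, 88.0 and 81.2 CPM with HP1a KO Tconv. Its groups were separate, and its log2 fold change was 0.19 (edgeR adjusted p = 0.249). Hsp90b1, a chaperone that GARP and integrins need to fold, was the most abundant of the group, at 611, 606 and 576 CPM with WT Tconv and at 561, 427 and 549 CPM with HP1a KO Tconv. Its groups were separate as well, with a log2 fold change of -0.22 and an edgeR adjusted p of 0.393. The fold change of Hsp90b1 was -0.11 without replicate 2 with HP1a KO Tconv, its lowest library. Itgav, named after its values had been seen because its product pairs with that of Itgb8, was at 218, 225 and 218 CPM with WT Tconv and at 189, 111 and 170 CPM with HP1a KO Tconv. Its log2 fold change of -0.49 had an adjusted p of 0.319 by edgeR and 0.0415 by DESeq2. The DESeq2 call of Itgav was lost without replicate 1, 2 or 3 with WT Tconv (adjusted p = 0.208, 0.213 and 0.176) and without replicate 3 with HP1a KO Tconv (adjusted p = 0.103). Without replicate 2 with HP1a KO Tconv, its lowest library, its log2 fold change by DESeq2 was -0.30 with an adjusted p of 0.00115.

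**Figure D3:**
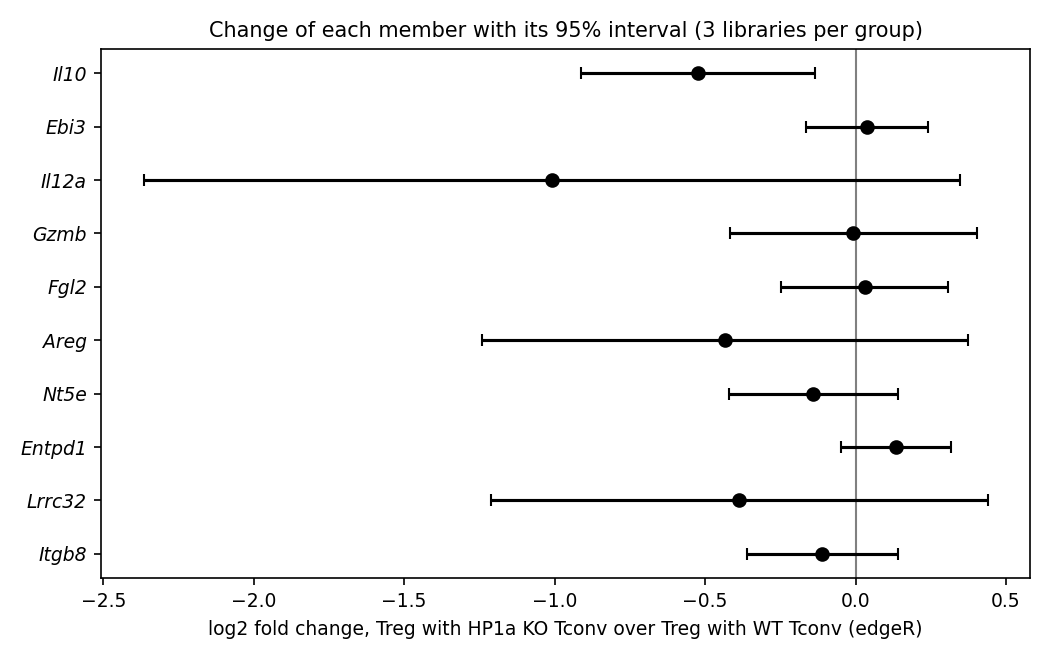
Log2 fold change of each of the 10 genes, Treg with HP1a KO Tconv over Treg with WT Tconv, from edgeR, with bars for the 95% interval (3 libraries per group). The interval of Il10, from -0.91 to -0.14, is the one that does not reach 0, and that of Il12a is the widest.

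The library with the lowest value differed between the effectors. Replicate 3 of Treg with HP1a KO Tconv was the lowest library for 5 of the 10, Il10, Il12a, Areg, Nt5e and Itgb8. It was the lowest for 19.7% of the 8848 genes with a mean of at least 10 CPM, which do not include Il12a. Replicate 2 of that group was the lowest for Lrrc32 and the highest for Itgb8. Replicate 2 of Treg with WT Tconv was the highest library for 4 of the 10, Il10, Gzmb, Fgl2 and Lrrc32, and for 15.9% of those 8848 genes. Without replicate 2 of Treg with HP1a KO Tconv, the groups did not overlap for 5 of the 10, where 36.9% of all genes then tested were separate. These were Il10, Il12a, Areg and Itgb8, which were lower with HP1a KO Tconv, and Entpd1, which was higher. In the same fit the 4 lower genes had an unadjusted edgeR p-value under 0.05, as 16.4% of all genes had, and 0 had an adjusted one. DESeq2 then called 2 of the 10, Il10 and Itgb8, and 11.3% of the genes it could adjust.

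**Figure D4:**
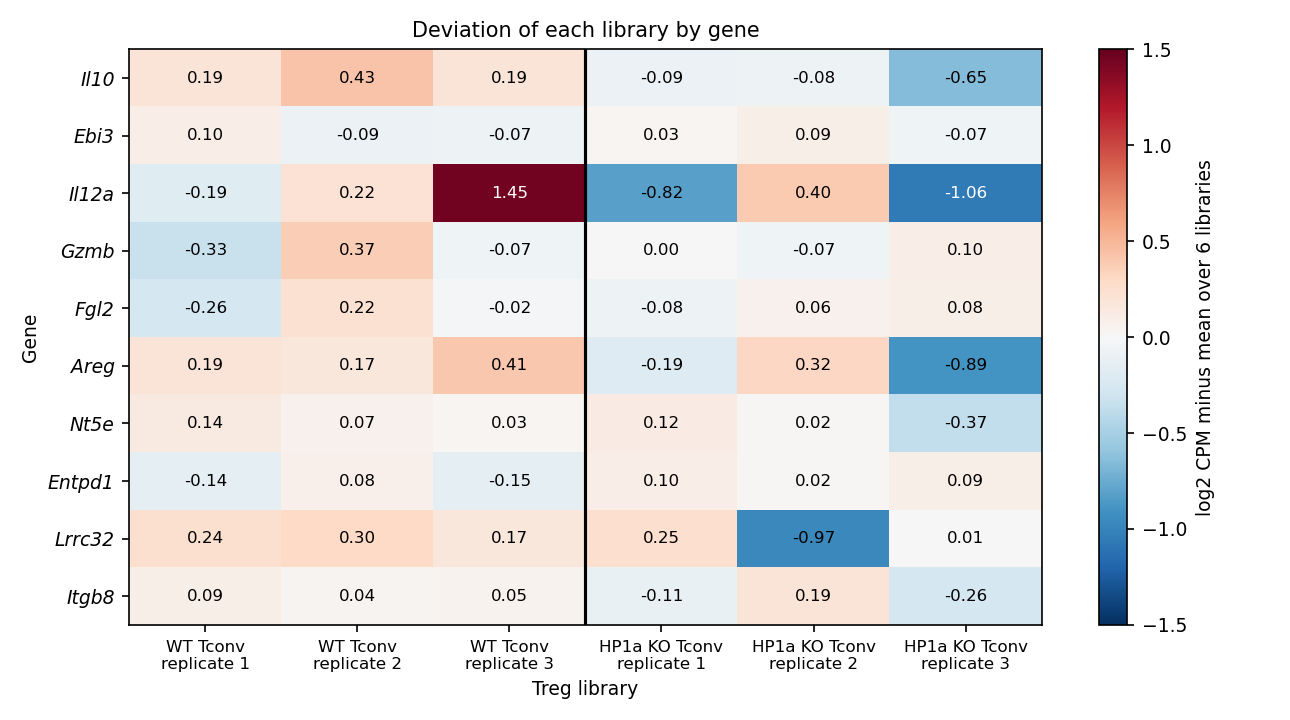
Log2 CPM of each of the 10 genes in each library, less the mean of that gene over the 6 libraries, in red where above it and in blue where below. The low values of Lrrc32 stand in replicate 2 and those of Il10, Areg and Nt5e in replicate 3 of Treg with HP1a KO Tconv, and the high value of Il12a in replicate 3 of Treg with WT Tconv.

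Over the 36 tested genes that act with the effectors, 0 had an edgeR adjusted p-value under 0.05. At an unadjusted edgeR p-value under 0.05 there were 9, of which 5 were higher with HP1a KO Tconv (6.98% of all genes tested were) and 4 lower (7.52% of all genes). The higher ones were Il10ra, Il10rb, Il12rb1, Il27ra and Nrros, and the lower ones Prdm1, Adora2a, Itgav and Furin. Il12rb1 and Prdm1 are named after their values had been seen. DESeq2 called 3 of the list, Il10ra, Il10rb and Itgav, against 4.35% of all genes it could adjust. It called 0 without replicate 3 of either group and 1 without replicate 1 or 2 with WT Tconv. It called 4 without replicate 1 or 2 with HP1a KO Tconv. Without replicate 2 with HP1a KO Tconv, DESeq2 called 11.3% of all genes it could adjust. That share is not given here for the other fits, so their counts are not compared with it. The groups did not overlap for 11 of the 36, against 23% of all genes tested, and the median log2 fold change was -0.08.

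**Figure D5:**
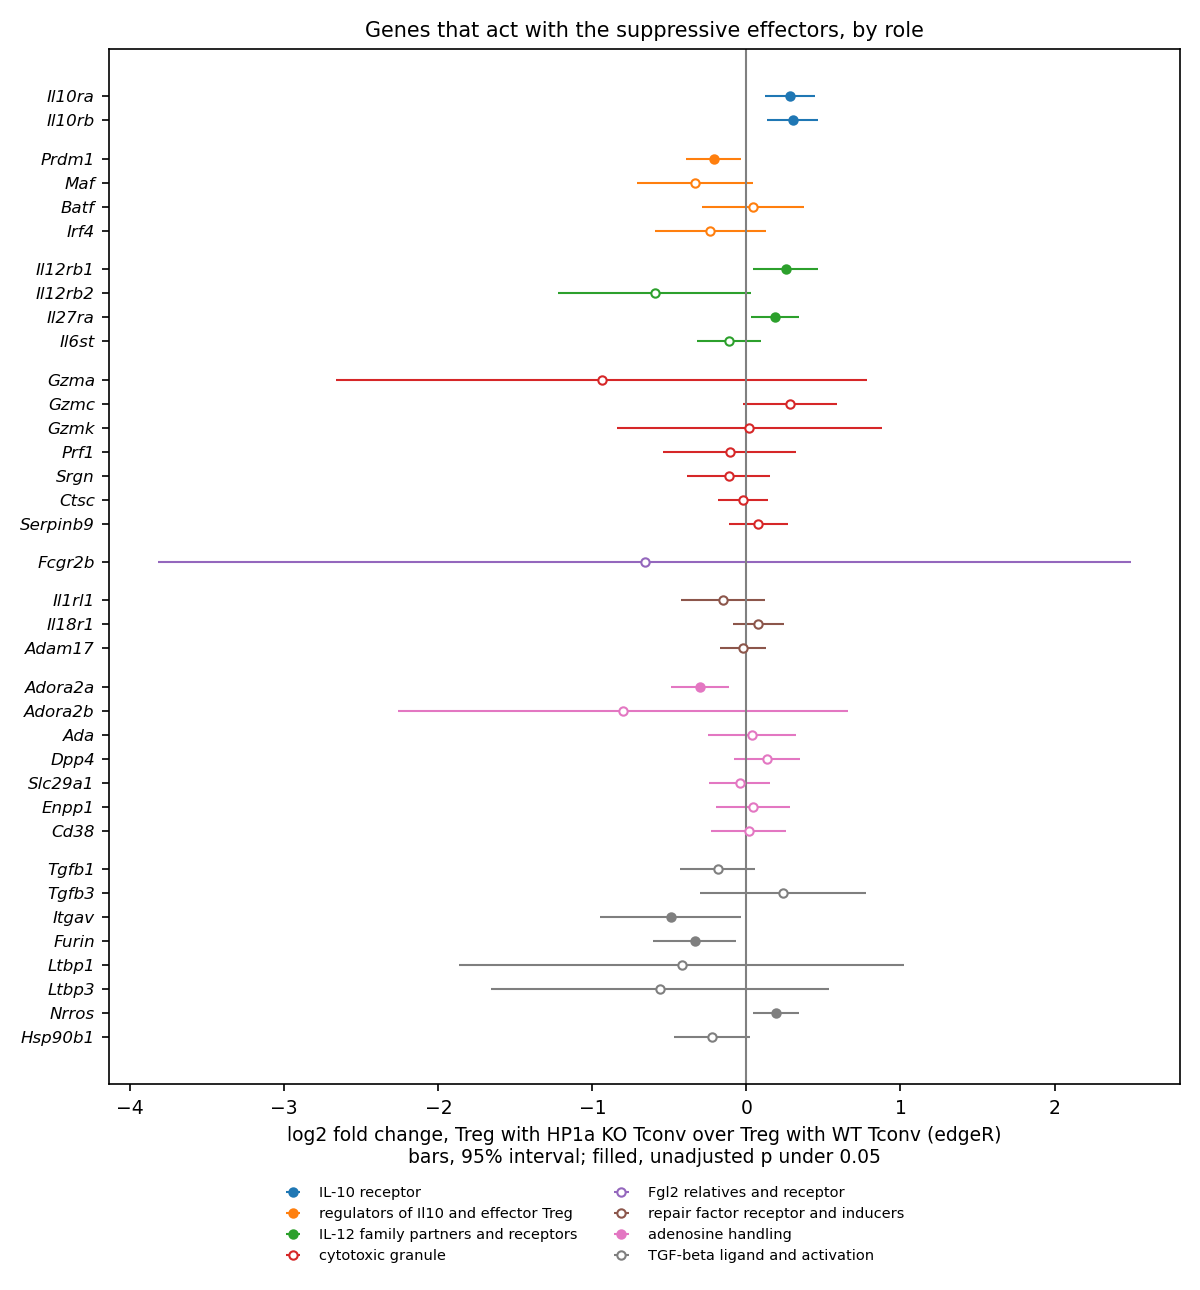
Log2 fold change of each of the 36 tested genes that act with the effectors, grouped by role, from edgeR with 95% intervals. Filled symbols mark the 9 genes with an unadjusted p-value under 0.05, and both chains of the IL-10 receptor lie to the right of 0.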

How the data were processed

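Per the study's methods, the authors trimmed paired-end reads of stranded total RNA libraries with Trim Galore, aligned them with STAR to GRCm39 with an Ensembl annotation, and quantified genes with Salmon in the nf-core RNA-seq pipeline. Their deposited table holds the estimated count of each gene in each library, given as whole numbers without normalization. Such an estimate divides reads that match several genes by a statistical model, which bears on Ebi3 and its antisense partner.

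All genes were tested with the quasi-likelihood test of edgeR version 4.0.16 in R version 4.3.3 (robust estimation, TMM scaling, the filterByExpr filter, group as the sole term), with Benjamini-Hochberg adjustment over the 18321 genes tested. CPM values were computed from the TMM-scaled totals, per 1000000 counts. Levels per kilobase divide CPM by the canonical transcript length. Intervals of fold changes are at 95%. Gene positions and lengths came from GENCODE for GRCm39, as in the files. The members, the list of 42 genes, the tests and the alternatives were chosen with earlier results of these data known. From that list, the 5 genes with the smallest p-value and the most abundant gene of each role were named. DESeq2 version 1.42.0 (independent filtering at 0.1) and limma-voom (limma version 3.58.1) were alternatives, beside other scalings and filters, a replicate block, Foxp3 as reference, and leaving out each library in turn. Replicates of a group differed by more than counting noise.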

Additional observations from a re-analysis of the deposited data

How the results depend on the processing

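In edgeR and limma-voom 0 of the 10 effectors and 0 of the 36 other genes were called with all libraries, and by edgeR both counts were also 0 with each library left out in turn. DESeq2 called 1 effector and 3 of the other genes, and 0 to 2 and 0 to 4 when a library was left out. It called 2 and 4 without replicate 2 with HP1a KO Tconv. There it called 11.3% of all genes it could adjust, against 4.35% with all libraries. Effectors at an unadjusted p-value under 0.05 numbered 1 in each setting with all libraries and 1 to 4 with a library left out. Without replicate 2 with WT Tconv the 1 gene was Entpd1 and not Il10. The 4 were found without replicate 2 with HP1a KO Tconv, where 16.4% of all genes passed by edgeR, against 14.5% with all libraries. Effectors whose groups did not overlap numbered 2 with library totals only, where Entpd1 joined Il10, and 1 to 5 with a library left out. The 5 were found without replicate 2 with HP1a KO Tconv, where 36.9% of all genes were separate, against 23% with all libraries. Shares over all genes are not given here for the other settings. Gzmb turned from -0.01 to 0.0197 with limma-voom, 0.0311 with library totals only, 0.0205 with the replicate block and 0.0447 relative to Foxp3, and ran from -0.14 to 0.22 over the libraries left out. Foxp3 turned from 0.00486 to -0.0260 with limma-voom and -0.0237 with the replicate block, and ran from -0.14 to 0.19 with a library left out. Fcgr2b was 0.0359 with the replicate block, and ran from -1.14 to 1.74 with a library left out. Fgl2 ran from -0.0691 to 0.17 and Srgn from -0.23 to 0.00866 with a library left out. The causes of these turns were not tested.

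The labels do not say whether replicate numbers pair the samples, and correlations of deviations cannot settle it. These were -0.04, 0.18 and 0.11 for same-numbered samples 1, 2 and 3, and -0.21 to 0.12 for the other pairs. Replicates 1 and 3 of Treg with WT Tconv correlated best with replicates 2 and 1 of Treg with HP1a KO Tconv. Replicate 2 of Treg with WT Tconv correlated best with the same number. The edgeR fit with the replicate block called 0 effectors, 1 had an unadjusted p-value under 0.05, and 9 of the other genes did. The 1 effector was Il10, at an unadjusted edgeR p of 0.00362 and an adjusted p of 0.406. The share of all genes in that fit is not given here, so these counts are not weighed. Depth limits only Il12a among the effectors, at 9 to 68 counts per library. Where a group was left with 2 libraries, its spread was assumed to be that of all libraries.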

Other observations

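Ratios of the RNA of partner genes within a library, per kilobase of the canonical transcript, do not depend on the scaling between libraries. Their size depends on the length taken, and no protein was measured. Nt5e over Entpd1, the RNA of CD73 over that of CD39, was 6.96, 5.68 and 6.47 with WT Tconv and 5.82, 5.76 and 4.15 with HP1a KO Tconv. The groups overlapped, and the lowest ratio was in replicate 3 of Treg with HP1a KO Tconv. By all exonic bases it was 2.43 to 4.08 over the 6 libraries. Itgb8 over Lrrc32 was 0.476, 0.440 and 0.487 with WT Tconv and 0.410, 1.18 and 0.438 with HP1a KO Tconv, so replicate 2 of Treg with HP1a KO Tconv was above the other 5 libraries. By all exonic bases it was 0.913 there and 0.317 to 0.377 in the others. Gzmb over Prf1, the RNA of granzyme B over that of perforin, was 70.1, 76.0 and 64.3 with WT Tconv and 81.2, 83.5 and 65.5 with HP1a KO Tconv. This is a large excess of the granzyme RNA in all 6 libraries. Ebi3 over Il12a ran from 41.4 to 237, and from 29.3 to 167 by all exonic bases.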
